A study of Mus musculus with 18 samples.

Results

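The libraries compared here are the 3 Skin and the 3 Blood libraries of a series of 18 that profiled mouse neutrophils from 6 tissues, with 3 libraries from each tissue. Tissue labels alone define the 2 groups. Both groups came from C57BL/6 mice aged 8 to 12 weeks, with no allele, agent or sex named, and Skin means ear. Cells were gated on CD45, CD11b and Ly6G with DAPI, and the labels call both groups Ly6G+ neutrophils. Nothing in the labels ties a replicate to a mouse or a pool of mice, and a p-value here measures library-to-library spread only, which may be technical.

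Neutrophils are short-lived phagocytes that mature in bone marrow, store antimicrobial proteins in granules and circulate in blood until chemokines and adhesion molecules bring them into tissue. Cells that have left the vessels are known to express inflammatory mediators such as IL-1beta and CXCL2 under the control of NF-kappaB and AP-1 factors. The ear holds keratinocytes, fibroblasts, resident macrophages and Langerhans cells beside them.

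Levels are given as scaled counts, meaning RSEM estimated counts divided by an effective library size, with no correction for gene length. They can be compared between libraries for a gene but not between genes. Estimated counts totalled 10365331, 5680026 and 5962931 in Skin replicates 1, 2 and 3 and 8191614, 9071304 and 9379928 in the Blood replicates. The effective library divided by this total was 0.656, 0.407 and 0.902 in Skin and 1.02, 1.01 and 1.02 in Blood, so an estimated count carried the highest level in Skin replicate 2. A library in which a gene had 0 counts has a floor value, 0.0736, 0.216 and 0.093 in the Skin replicates and 0.0521 to 0.0598 in Blood. Genes above the floor numbered 13353, 9169 and 13552 in Skin and 13409, 13987 and 14664 in Blood.

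The Skin libraries stood apart from each other before any gene was considered. The root mean square log2 difference over the 11637 tested genes was 3.06, 2.24 and 2.90 between pairs of Skin libraries and 0.974 to 1.06 between pairs of Blood libraries. Skin replicate 3 was 1.97 to 2.11 from the Blood libraries, closer than to either other Skin library. Skin replicates 1 and 2 were 2.46 to 3.11 from Blood.

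A group of 12 predicted genes that share at least 20% of their 20-base words with Gm10800 took 54.7%, 43.6% and 26.4% of the estimated counts in Skin and 4.75%, 1.07% and 4.14% in Blood. All 12 passed and were higher in Skin, and they include the 8 protein-coding genes with the highest mean in Skin. Gm10800 itself (chr2:98666547-98667301, GRCm38) stood at 361273, 481525 and 124446 in Skin and 18880, 4148 and 16584 in Blood, a log2 difference of 4.67 ± 0.73 (SE, n = 3 against 3, limma adjusted p = 0.0285). The groups did not overlap, and shared sequence leaves the value of any single member uncertain. The other genes of Skin were therefore measured with fewer counts than the totals show. Genes on the mitochondrial chromosome took 1.80%, 2.61% and 1.65% of counts in Skin, 0.209% to 0.228% in Blood and 0.272% to 23.2% in the other 12 libraries. The part of these shares in the differences described next was not tested.

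Of the 11637 genes tested, 109 passed limma's moderated test at a Benjamini-Hochberg adjusted p of 0.05, which is 0.937% of them. Higher in Skin were 86 genes (0.739%), and lower were 23 (0.198%). In addition to the 12 genes of the Gm10800 group and 8 mitochondrially encoded proteins, 21 of the 86 belong to lists of markers of other skin or blood cells. Among the lower genes were 2 hemoglobin genes, the neutrophil gene Wfdc21 and the interferon-induced GTPases Ifi47 and Irgm2. None of the 109 genes had overlapping groups. Over all tested genes, the 3 Skin libraries lay above the 3 Blood libraries for 1124 (9.66%) and below them for 2675 (23.0%). A gene under 1 in a whole group was tested only if all 3 libraries of the other reached 1, which fixed the lack of overlap for 148 genes low in Blood and 598 low in Skin, 20 and 9 of them among the 109.

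The median log2 difference of all tested genes was -0.64, with quartiles at -1.75 and 0.62, and only 35.9% of genes had a value above 0. That median moved to -0.16 with quantile normalization, -0.32 with median-of-ratios scaling and -0.57 after rescaling without the Gm10800 group, so list medians below are set against -0.64. Genes higher in Skin made up 78.9% of those that passed, against 61.7% with quantile normalization, 83.7% with median-of-ratios scaling and 90.1% after rescaling without the Gm10800 group. The majority turned in other settings: the share was 40.1% with a pseudocount of 0.25, 39.6% with a minimum of 5, 30.8% with all 18 libraries in the fit, 48.6% with a weight per library, 48.1% with a constant prior, 46.5% with a replicate block, and 48.9% and 29.6% without Skin replicate 2 or 3.

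How many genes passed depended on single libraries. Without Skin replicate 1, 0 genes passed in limma, although 3284 had an unadjusted p under 0.05, against 2741 with all 6 libraries. Without Skin replicate 2, 1045 genes passed, and without Skin replicate 3, 921. Leaving out Blood replicate 1, 2 or 3 left 13, 12 and 15 genes. Every call named here was therefore lost without Skin replicate 1. All 109 genes kept their direction in every alternative that gave them a value, 18 for 97 genes and 17 for the 12 of the Gm10800 group, which rescaling without them leaves out. Their groups did not overlap, so only quantile normalization, median-of-ratios scaling and rescaling could have reversed a direction. Of the 109, 12 passed in 17 alternatives, all but the fit without Skin replicate 1: Thbs1, Mrc1, Dab2, Col1a1, H2-Eb1, Cd74, mt-Nd4l, Dsp, Krt1, Krt5, Krt10 and Krt15.

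**Figure D1:**
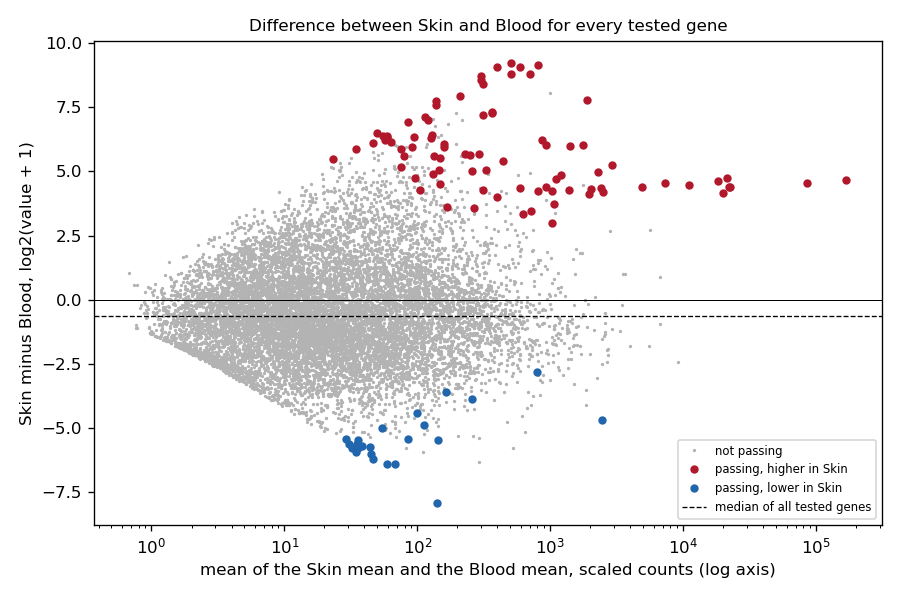
Each point is a tested gene, with its level (mean of the Skin and Blood means, scaled counts, log axis) on the horizontal axis and the Skin minus Blood difference on log2(value + 1) on the vertical axis. The 86 passing genes higher in Skin are red, the 23 lower ones are blue, and the dashed line at -0.64 is the median of all tested genes.

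The defining transcripts of neutrophils were measured first, as a check of the label. Their summed level over 29 genes was 3158, 39534 and 19478 in Skin and 42836, 43683 and 42245 in Blood. By this sum Skin replicate 2 came close to Blood, Skin replicate 3 lay lower, and Skin replicate 1 was the lowest. In Skin replicate 1, 27 of the 29 genes were below all Blood libraries. In Skin replicate 2, 16 were below and 10 above all Blood libraries, and in Skin replicate 3, 22 were below and 6 above.

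S100a9, which codes for a subunit of the cytosolic protein calprotectin, stood at 608, 8093 and 3880 in Skin and 14363, 15001 and 13207 in Blood. Every Skin library was below every Blood library. The difference of -2.41 ± 0.84 did not pass (limma adjusted p = 0.121).

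Cxcr2, the receptor for CXC chemokines that draw neutrophils into tissue (chr1:74153989-74161246), stood at 54.4, 1724 and 906 in Skin and 3839, 3525 and 3492 in Blood. The groups did not overlap here either, yet the distance between Skin replicates 1 and 2 exceeded that between Skin replicate 2 and Blood (log2 difference -3.03 ± 1.09, limma adjusted p = 0.130). Without Skin replicate 1 the difference was -1.53. Csf3r, the receptor for G-CSF, showed the same order within Skin, with 194, 2818 and 1857 in Skin and 3947, 3592 and 4014 in Blood.

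Ly6g encodes the antigen used for sorting (chr15:75155240-75159126). It stood at 0.221 and 0.216 in Skin replicates 1 and 2, at or just above the floor, and at 26.9 in Skin replicate 3, against 102, 237 and 69.3 in Blood. Its difference of -5.12 ± 1.36 did not pass (limma adjusted p = 0.0684). The other 12 libraries of the series ranged from 0.346 to 566.

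Of the 28 tested identity genes, none was higher and only Wfdc21, a WAP-domain protein of granulocytes, was lower with a passing test. It stood at 2.72, 0.649 and 7.53 in Skin and 233, 169 and 99.1 in Blood (log2 difference -5.40 ± 0.97, limma adjusted p = 0.0388). The list median was -2.17. In bulk libraries, fewer cells of a type and less RNA per cell cannot be told apart.

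Members of the same list went the other way in part. Trem1, an activating receptor that amplifies inflammatory signals, stood at 92.5, 2736 and 961 in Skin and 248 to 305 in Blood. G0s2, a regulator of lipolysis, stood at 4.78, 472 and 277 in Skin and 10.3, 17.8 and 16 in Blood. Both were above Blood in Skin replicates 2 and 3 and below it in Skin replicate 1, and neither passed.

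Granule genes were next. The 25 genes of specific and gelatinase granules summed to 1940, 10371 and 7575 in Skin and 13505, 18040 and 19332 in Blood. None passed of 24 tested, and the median was -2.66. In 15 of them all Skin libraries were below Blood, against 23.0% of all tested genes. The filter fixed this for 1 gene, under 1 in all Skin libraries. Ltf (lactoferrin) stood at 0.0736, 1.51 and 52.2 in Skin and 142, 448 and 1111 in Blood, a difference of -6.31 ± 1.43 (limma adjusted p = 0.0589). Camp (cathelicidin) stood at 0.221, 0.216 and 12.6 against 56.5, 93.6 and 252 (limma adjusted p = 0.059). Both are transcribed while neutrophils mature in marrow, and in both Skin replicate 3 was the highest of the Skin libraries.

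Azurophil granule genes, made at the promyelocyte stage, followed. Elane, Prtn3, Ctsg and Bpi had 0 counts in all 6 libraries, and of the 11 genes tested none passed (median -1.23).

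**Figure D2:**
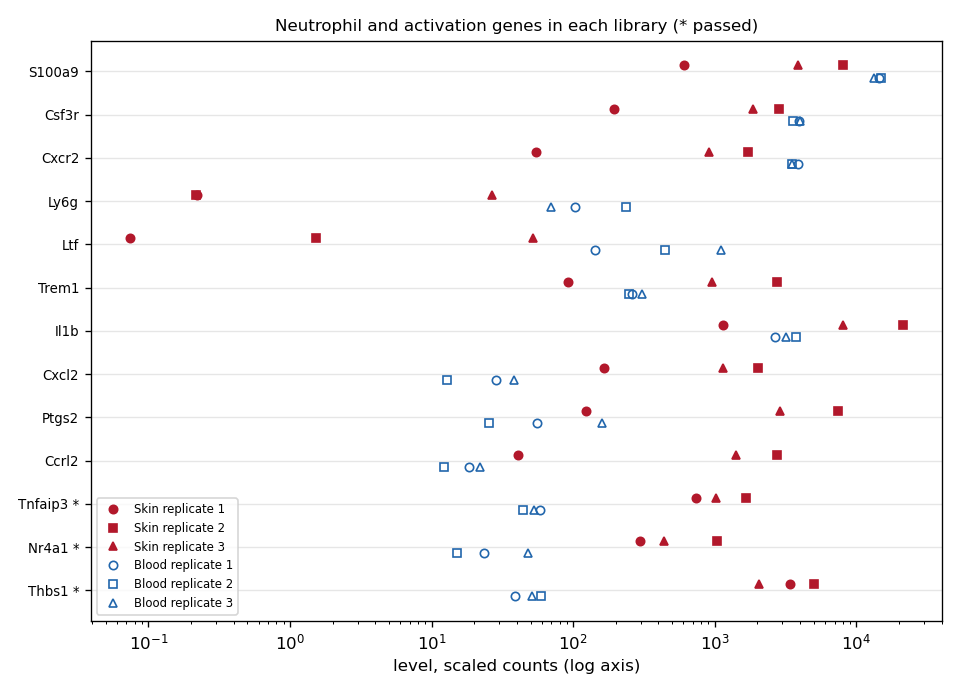
Levels of 13 neutrophil and activation genes in each library, in scaled counts on a log axis, with filled red symbols for Skin and open blue symbols for Blood. An asterisk marks the 3 genes that passed, and for most identity genes Skin replicate 1 lies far to the left of the other libraries.

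Cytokine and chemokine genes summed to 2627, 32250 and 13862 in Skin and 5178, 6418 and 6851 in Blood, with Skin replicates 2 and 3 above and Skin replicate 1 below every Blood library. Il1b, the precursor of IL-1beta (chr2:129364570-129371139), stood at 1134, 21431.5 and 8043 in Skin and 2640, 3745 and 3195 in Blood. Skin replicates 2 and 3 were above every Blood library and Skin replicate 1 below, so the groups overlapped and the difference of 0.88 ± 0.92 did not pass (limma adjusted p = 0.592). Without Skin replicate 1 it was 2.05, and without Skin replicate 2 it was -0.07. Il1rn, the antagonist of the same receptor, followed this order with 257, 3193 and 1719 in Skin and 455, 606 and 565 in Blood.

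Among the 30 cytokines and chemokines, 21 were tested, none passed, 8 had all Skin libraries above Blood and 3 had all below, and the median was 1.38. Over all tested genes 9.66% lay above and 23.0% below. Of the 8, 4 were under 1 in all Blood libraries, and of the 3, 1 was under 1 in all Skin libraries. The filter fixed the lack of overlap of these genes and so part of the median. Cxcl2, a ligand of CXCR2, stood at 166, 2017 and 1138 in Skin and 28.4, 12.9 and 38.4 in Blood, with no overlap (4.85 ± 0.95, limma adjusted p = 0.051). Ccl9 was above Blood in every Skin library too, at 96.0, 1496 and 260 against 27.0, 23.5 and 58.0, without passing. Tnfsf14, a TNF family ligand also called LIGHT, lay on the other side at 1.99, 6.28 and 54.8 in Skin and 257, 310 and 225 in Blood (limma adjusted p = 0.059).

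Ptgs2, the inducible cyclooxygenase of prostaglandin synthesis, stood at 123, 7386 and 2868 in Skin and 55.4, 25.3 and 159 in Blood. Only Skin replicate 1 fell within the Blood range, and the difference of 4.48 ± 1.36 did not pass (limma adjusted p = 0.0883). The leukotriene genes Alox5 and Alox5ap were below Blood in all Skin libraries, at 17.7, 35.7 and 156 for Alox5 against 224, 312 and 310. None of the 13 tested lipid mediator genes passed.

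Tnfaip3, which encodes the NF-kappaB inhibitor A20, was higher in all 3 Skin libraries. It stood at 736, 1647 and 1011 in Skin and 58.1, 44.5 and 53.1 in Blood, a difference of 4.35 ± 0.56 (limma adjusted p = 0.0138). The groups were far apart and the Skin libraries lay closer together than for Il1b or Cxcl2. The difference was 4.62, 4.04 and 4.39 without Skin replicate 1, 2 or 3. RefSeq gives this gene 2 promoters, of which the one at chr10:19011914-19012213 holds no NF-kappaB motif. The other is printed because it holds the motif, GGANTTTCC on either strand. This motif was found in 2 of the 66 promoters of genes higher in Skin (3.03%), the printed one included, and 0% of the 23 of lower genes. Its share was 1.43% in those of all tested genes and 1.25% in all RefSeq promoters searched. The sequence covers 250 bases before to 50 after the transcript start in RefSeq (GRCm38.p6, chr10:19015361-19015660, minus strand), with the motif in capitals, and the match begins 24 bases before the start. A match describes the letters only.
Tnfaip3: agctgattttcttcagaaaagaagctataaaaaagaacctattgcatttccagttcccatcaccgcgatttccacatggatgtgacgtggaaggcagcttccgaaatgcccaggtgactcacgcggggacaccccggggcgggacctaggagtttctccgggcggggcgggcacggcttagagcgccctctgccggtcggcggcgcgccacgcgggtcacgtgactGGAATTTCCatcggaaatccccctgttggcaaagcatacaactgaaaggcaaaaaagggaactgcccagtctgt

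Tnfaip3 was the only gene to pass of 23 tested NF-kappaB targets and feedback genes (median 0.80). Of these, 8 had every Skin library above Blood and 1 every one below, against 9.66% and 23.0% of all tested genes. Nfkbia, encoding the inhibitor IkappaBalpha, stood at 559, 1681 and 660 in Skin and 160, 160 and 123 in Blood (2.53, limma adjusted p = 0.059). Icam1, the adhesion molecule bound by beta2 integrins, stood at 436, 382 and 136 against 5.08, 17.6 and 29.0 (4.24 ± 0.86, limma adjusted p = 0.0531). Both rank Skin above Blood without overlap, and neither passed.

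Immediate early genes, the transcription factors induced within minutes of stimulation, summed to 6580, 23352 and 14591 in Skin and 7641, 6616 and 10342 in Blood. Of 27 tested, Nr4a1 alone passed, and the median was 1.33. In 12 all Skin libraries were above Blood and in 2 all below, against 9.66% and 23.0% of all tested genes. Nr4a1, an orphan nuclear receptor, stood at 296, 1037 and 438 in Skin and 23.5, 15.1 and 47.7 in Blood (4.26 ± 0.74, limma adjusted p = 0.0367). Fosb, Atf3, Klf4, Maff and Ppp1r15a had no overlap and adjusted p-values from 0.0506 to 0.0571. Fos itself overlapped, at 290, 4866 and 1800 against 600, 438 and 1170.

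Heat shock genes had a median of 1.82 over 14 tested members, with 7 above Blood in all Skin libraries, against 9.66% of all tested genes. The filter fixed this for 1 of the 7, under 1 in all Blood libraries. Hspa1a and Hspa1b, near-identical copies of inducible Hsp70 whose reads cannot be split with certainty, stood at 105, 731 and 63.2 and at 407, 236 and 58.6 in Skin, and between 0.0544 and 9.31 in Blood. Neither passed (limma adjusted p = 0.0505 and 0.051). The member that passed went down: the co-chaperone Dnajb1 had 0 counts in all Skin libraries and stood at 86.9, 48.3 and 71.3 in Blood, at least 77.0-fold lower in Skin against a floor of 3 counts per library (limma adjusted p = 0.0358).

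Thbs1, the gene for the matrix glycoprotein thrombospondin-1 (chr2:118111876-118127133), shared the lowest adjusted p of all tested genes with Mrc1 and Col1a1. It stood at 3410, 5027 and 2060 in Skin and 38.9, 59.0 and 51.2 in Blood, a difference of 6.04 ± 0.55 (limma adjusted p = 0.00926). No Skin library came near Blood, and the value was 6.01, 5.73 and 6.37 without Skin replicate 1, 2 or 3. The other 12 libraries ranged from 16.3 to 1512. Thbs1 was the only one of 14 tested angiogenic factors to pass (median -0.36, or 0.0061 with median-of-ratios scaling). Vegfa stood at 135, 28.0 and 280 in Skin and 55.0, 71.5 and 48.8 in Blood and did not pass (0.82 ± 0.89, limma adjusted p = 0.607).

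C3ar1, the receptor for the complement fragment C3a, was the only chemoattractant receptor of 18 tested that passed. It stood at 96.1, 475 and 284 in Skin and 6.66, 7.60 and 16.4 in Blood (4.50 ± 0.85, limma adjusted p = 0.0476). Formyl peptide and leukotriene receptors lay below Blood in every Skin library: Fpr1 stood at 0.662, 1.95 and 52.5 against 206, 184 and 265 (-5.08, limma adjusted p = 0.0618). Cxcr4, which retains neutrophils in marrow, overlapped at 92.6, 1684 and 526 against 301, 264 and 512. Ccrl2, an atypical chemokine-binding receptor, was above Blood in all Skin libraries, at 40.8, 2760.5 and 1399.8 against 18.4, 12.1 and 22.0, and did not pass (limma adjusted p = 0.0752).

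Interferon-induced genes were also described by 2 lists. The 30 genes of the type I interferon response summed to 335, 10245 and 3788 in Skin and 11093, 13059 and 6359 in Blood. The other 12 libraries of the series held 749 to 3662, so Blood and Skin replicates 2 and 3 lay above them and Skin replicate 1 below. Of 29 tested 1 passed, lower (median -2.56). In 11 all Skin libraries were below Blood and in none all above, against 23.0% and 9.66% of all tested genes. The filter fixed the lack of overlap for 2 of the 11, which were under 1 in all Skin libraries. Without Skin replicate 1 this median was -0.74, against -0.775 for all genes in that fit.

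Ifi47, an interferon-inducible GTPase (chr11:49076587-49096974), stood at 0.460, 0.227 and 0.093 in Skin and 200, 93.2 and 61.9 in Blood (-6.40 ± 1.04, limma adjusted p = 0.0317). Irgm2, of the same GTPase family, stood at 10.4, 2.54 and 8.21 against 240, 277 and 136 (-4.87 ± 0.83, limma adjusted p = 0.0357). Both were lower in every Skin library. The filter fixed this for Ifi47, which was under 1 in all Skin libraries and is also the passing gene of the type I list. Ifi47 and Irgm2 are the 2 of 13 tested interferon-gamma GTPases that passed (median -2.67). That list summed to 329, 1258 and 400 in Skin, 2770, 3265 and 1252 in Blood and 452 to 890 in the other 12 libraries. Rsad2, encoding the antiviral protein viperin, overlapped at 81.0, 3548 and 590 in Skin and 925, 1220 and 650 in Blood, and Skin replicate 2 was above all Blood libraries for 11 of the 30 genes of the type I list.

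Markers of other cell types made up 21 of the 86 higher genes. The 24 keratinocyte markers summed to 19390, 10042 and 1445 in Skin and 6.62, 15 and 18.4 in Blood, and the other 12 libraries of the series held 13 to 200.2. Of 15 tested, 8 passed and were higher, but 10 of the 15 were under 1 in all Blood libraries and were tested only because every Skin library reached 1, so no median is given. In Blood 18 to 20 of the 24 were at 0. The order within Skin, replicate 1 above 2 above 3, was not that of the summed neutrophil identity genes, which was 2, 3 and 1. Single neutrophil genes such as Ly6g and Mmp9 had other orders, with replicate 3 the highest.

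Krt14, a keratin of basal keratinocytes (chr11:100203162-100207548), stood at 3818, 343 and 78.2 in Skin and had 0 counts in all Blood libraries, at least 3641-fold higher in Skin, or 542-fold without Skin replicate 1 (limma adjusted p = 0.0285). Krt10, a keratin of the suprabasal layers, stood at 2219, 637 and 171 and again at 0 counts in Blood, at least 2599.8-fold higher, or 1041-fold without Skin replicate 1 (limma adjusted p = 0.00941). Krt77 differed most between the Skin libraries: 0 counts in replicate 1, 1475 in replicate 2 and 92.5 in replicate 3, which left it untested. Krt2, of the same type II keratin family, had the opposite order at 2028, 2.81 and 2.88.

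The Krt10 promoter is printed as an example of a TATA box close to the start of a keratin gene. Capitals mark TATAAA, which begins 26 bases before the start (GRCm38.p6, chr11:99389315-99389614, minus strand). The motif was found on either strand in 10 of the 66 promoters of genes higher in Skin (15.2%) and 4 of the 23 of lower genes (17.4%). It was found in 7.85% of those of all tested genes and 13.6% of all RefSeq promoters searched. The shares of the passing genes were above that of the tested genes they were drawn from, and near that of all RefSeq promoters. The AP-1 motif TGANTCA was found in 8 of the 66 (12.1%) and 3 of the 23, against 5.67% for all tested genes. The C/EBP motif TTGCNNAA was found in 6 of the 66 (9.09%) and 4 of the 23 (17.4%), against 8.85%. These differences were not tested.
Krt10: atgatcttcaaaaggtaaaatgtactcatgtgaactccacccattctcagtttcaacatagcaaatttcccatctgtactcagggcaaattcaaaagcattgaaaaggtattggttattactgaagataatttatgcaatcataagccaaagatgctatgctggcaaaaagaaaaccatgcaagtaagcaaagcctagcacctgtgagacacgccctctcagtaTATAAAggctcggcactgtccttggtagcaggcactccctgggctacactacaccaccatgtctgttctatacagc

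Of 13 fibroblast markers tested, 4 passed, all higher in Skin, and the median was 3.35. Their sum was 6427, 3234 and 2080 in Skin and 308, 303 and 379 in Blood. Col1a1, a chain of type I collagen (chr11:94936224-94953042), stood at 1030, 719 and 421 in Skin and 4.13, 3.43 and 2.67 in Blood (7.28 ± 0.72, limma adjusted p = 0.00926). The other passing members were Col1a2, Col3a1 and Sparc. The proteoglycan gene Dcn was spread from 957 in Skin replicate 1 to 2.81 and 23.9 in Skin replicates 2 and 3, and Blood held 2.33 to 3.43, so only Skin replicate 2 lay within the Blood range.

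Markers of macrophages and antigen-presenting cells were described next. The 18 macrophage and monocyte markers summed to 2466, 5674 and 3927 in Skin and 750, 1265 and 1003 in Blood, with 3 of 18 passing, all higher, and a median of 2.74. Another 3 of the 18 were under 1 in all Blood libraries and tested only because every Skin library reached 1. Mrc1, the mannose receptor CD206 (chr2:14229392-14332057), stood at 459, 1912 and 673 in Skin and 1.5, 0.599 and 0.781 in Blood (8.77 ± 0.83, limma adjusted p = 0.00926). Cd163, a scavenger receptor for hemoglobin, and Apoe, an apolipoprotein, were the other passing members. Csf1r, the receptor that macrophages need to survive, overlapped at 253, 307 and 430 against 313, 522 and 326.

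Outside the marker lists, Dab2, an endocytic adaptor (chr15:6299788-6440712), stood at 204, 666 and 382 in Skin and 0.299, 0.490 and 0.885 in Blood (7.93 ± 0.89, limma adjusted p = 0.00941). Pltp, a phospholipid transfer protein, stood at 113, 283 and 319 against 0.299, 0.599 and 1.31. Clec10a, a galactose-type lectin receptor, stood at 41.0, 219 and 73.1 in Skin and 0 counts in Blood, at least 286-fold higher, or 147-fold without Skin replicate 2. All are known in tissue macrophages or dendritic cells, and all passed. No overlap was a condition for naming them. Dab2 and Clec10a were also under 1 in all Blood libraries and tested only because every Skin library reached 1. Whether neutrophils or other cells of the ear carried these transcripts cannot be told apart in sorted bulk RNA.

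MHC class II genes, which present peptides to CD4+ T cells, were higher in Skin for 4 of 11 tested members (median 2.70). H2-Aa (chr17:34282744-34287823) stood at 447, 1177 and 554 in Skin and 1.5, 0.708 and 16.3 in Blood (7.31 ± 0.99, limma adjusted p = 0.0164). H2-Eb1 stood at 567, 456 and 694 against 10.8, 10.1 and 9.43 (5.67 ± 0.63, limma adjusted p = 0.00941). H2-Ab1 and the invariant chain gene Cd74 passed too, with no overlap. Ciita, the coactivator on which class II transcription depends, did not, at 0.671, 0.216 and 21.3 against 8.26, 4.15 and 1.43. These 4 genes are also members of the list of Langerhans and dendritic cell markers, where 5 of 12 passed (the fifth was the lectin gene Mgl2) and the median was 3.27. Cd207, which defines Langerhans cells, stood at 64.2 in Skin replicate 1, 0.649 in replicate 2 and 0 counts in replicate 3 and in Blood.

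The promoters of H2-Aa (GRCm38.p6, chr17:34287774-34288073, minus strand) and H2-Eb1 (chr17:34305617-34305916, plus strand) are shown because both genes passed and were higher in Skin. Their orders within Skin differed. Capitals mark ATTGG or its reverse complement CCAAT, the core of the Y box of class II promoters, a motif added after the values were seen. The match begins 48 bases before the start in H2-Aa and 59 and 35 bases before it in H2-Eb1. This short motif was found in 25.8% of the promoters of genes higher in Skin, 56.5% of those of lower genes and 37.2% of those of all tested genes, so its presence alone sets no group apart.
H2-Aa: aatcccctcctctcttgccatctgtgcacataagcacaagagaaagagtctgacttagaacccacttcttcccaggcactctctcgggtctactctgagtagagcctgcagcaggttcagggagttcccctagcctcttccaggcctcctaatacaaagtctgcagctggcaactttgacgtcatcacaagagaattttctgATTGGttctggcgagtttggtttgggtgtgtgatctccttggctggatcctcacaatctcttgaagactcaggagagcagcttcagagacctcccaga
H2-Eb1: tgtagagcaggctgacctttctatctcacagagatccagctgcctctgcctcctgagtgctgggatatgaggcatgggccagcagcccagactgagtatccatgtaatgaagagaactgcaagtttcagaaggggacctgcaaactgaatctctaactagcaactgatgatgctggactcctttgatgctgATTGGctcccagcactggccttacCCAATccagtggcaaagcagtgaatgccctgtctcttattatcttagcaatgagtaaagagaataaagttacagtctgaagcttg

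**Figure D3:**
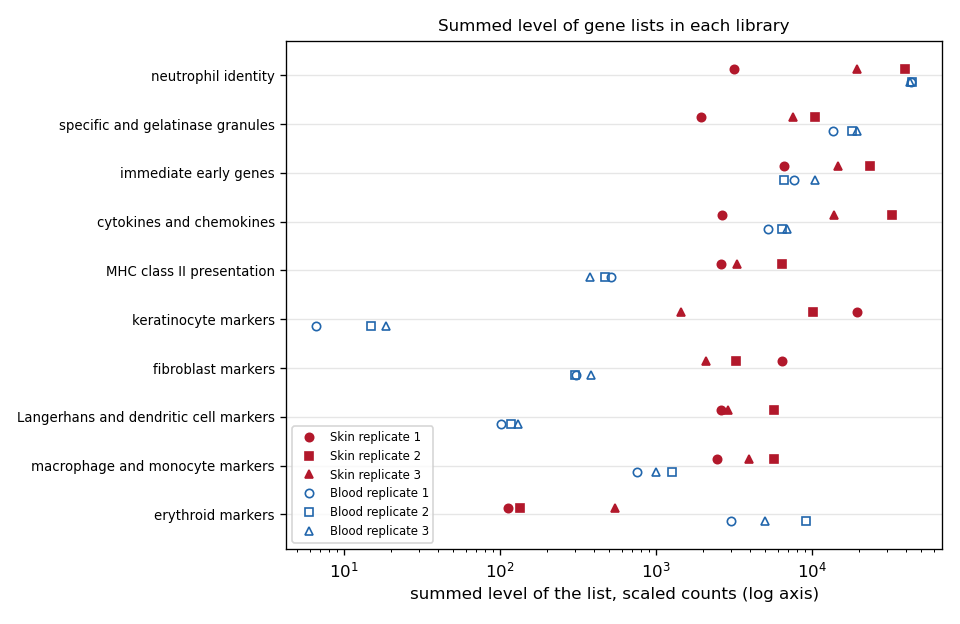
Summed level of 10 gene lists in each library, in scaled counts on a log axis, with filled red symbols for Skin and open blue symbols for Blood. Keratinocyte markers run from 1445 to 19390 in Skin against 6.62 to 18.4 in Blood, and neutrophil identity genes from 3158 to 39534 against 42245 to 43683.

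Other cell lists showed less. Endothelial markers had 0 passing of 11 tested (median 1.54), hair follicle and gland markers 0 of 8 (2.13), mast cell and basophil markers 0 of 5 (1.17), adipocyte and cartilage markers 0 of 4 (1.98) and muscle markers 0 of 4 (0.19). Of these, 2 endothelial, 1 hair follicle and gland and 1 mast cell and basophil marker were under 1 in all Blood libraries. They were tested only because every Skin library reached 1. B cell markers had 0 of 11 (0.17), and T, gamma-delta T and NK cell markers 0 of 8 (-0.54, or 0.03 with quantile normalization). Melanocyte and Schwann cell markers had 1 of 8, the myelin gene Pmp22, at 163, 147 and 30.8 in Skin and 0.179, 0.272 and 0.260 in Blood (limma adjusted p = 0.0388). Melanocyte genes in that list, such as Dct and Tyrp1, were above 20 in Skin replicate 1 only, at 21.6 and 29.5.

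Red blood cell transcripts went the opposite way. The 11 erythroid markers summed to 112, 134 and 541 in Skin and 3023, 9135 and 4948 in Blood. Hbb-bs, a beta-globin gene, stood at 74.8, 129 and 399 in Skin and 2290, 7862 and 3797 in Blood (-4.70 ± 0.73, limma adjusted p = 0.0285). Hbb-bt had 0 counts in all Skin libraries and was at least 317-fold lower (limma adjusted p = 0.00941), but the copies are so alike that reads may be split between them unevenly. Of 10 tested members 2 passed, and 4 of the 10 were under 1 in all Skin libraries. Platelet markers had none passing of 7 tested, of which 2 were under 1 in all Skin libraries.

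Mitochondrially encoded proteins, a list added after the values were seen, were higher for 8 of 12 tested genes (median 4.62). Their sum was 27403, 64115 and 18242 in Skin, 2042 to 2257 in Blood and 2628 to 243528 in the other 12 libraries. Blood was thus the lowest of the series, and Skin lay within the range of the other tissues. Of the 12 genes, 2 were under 1 in all Blood libraries and tested only because every Skin library reached 1. The complex I subunit mt-Nd5 stood at 3868, 10567 and 2532 in Skin and 102, 102 and 173 in Blood (5.26 ± 0.63, limma adjusted p = 0.00941). The subunit mt-Nd4l stood at 572, 1108 and 130 with 0 counts in Blood, at least 1554-fold higher, or 904-fold without Skin replicate 2. Skin replicate 2 was the highest for both, and no Skin library overlapped Blood.

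Protein-coding genes of no marker list that rose most included Xkrx, a membrane protein of the XK family (1878, 3366 and 5943 in Skin, 2.52, 10.1 and 87.6 in Blood, 7.79 ± 1.08, limma adjusted p = 0.0178). Anxa8, an annexin, and Evpl, the cornified envelope protein envoplakin, rose as well, and both are known in stratified epithelium. Anxa8 stood at 277, 459 and 88.3 with 0 counts in Blood, at least 708-fold higher, or 470.2-fold without Skin replicate 2. Evpl stood at 175, 151 and 25.8 against 0.179, 0.0544 and 0.0521 (6.35 ± 1.15, limma adjusted p = 0.0398).

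Rgs1, a brake on chemokine receptor signalling, stood at 155, 300 and 52.0 in Skin and 0.179, 0.0544 and 0.156 in Blood (6.91 ± 1.09, limma adjusted p = 0.0285). Cdkn1a, the cell cycle inhibitor p21, stood at 259, 165 and 140 against 0.179, 0.708 and 4.95 (6.32 ± 1.0, limma adjusted p = 0.0285). Kif21a, a kinesin, and Olfr1191-ps1, listed as an olfactory receptor pseudogene by name and as protein-coding by the annotation, had 0 counts in Blood and were at least 302-fold and at least 707-fold higher, or 178-fold and 307-fold without Skin replicate 2. No overlap between the groups was a condition for naming these 4 genes. Rgs1, Kif21a and Olfr1191-ps1 were also under 1 in all Blood libraries and tested only because every Skin library reached 1.

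Of the lower genes outside the interferon and globin groups, the largest differences were those of Tmem268, a transmembrane protein, and Kirrel3, a cell adhesion protein of the immunoglobulin superfamily. Tmem268 stood at 0.221, 1.51 and 0.279 in Skin and 181, 118 and 104 in Blood (-6.38 ± 0.99, limma adjusted p = 0.0285). Kirrel3 stood at 0.0736, 0.216 and 0.279 against 117, 106 and 51.9 (-6.20 ± 1.03, limma adjusted p = 0.0326). Apol11b, an apolipoprotein L gene, had 0 counts in Skin and was at least 72.0-fold lower, and the predicted gene Gm45837 at least 101-fold lower, or 66.4-fold without Blood replicate 2. Skin replicate 2 holds down such bounds, which without it were 110.3 for Apol11b, 154 for Gm45837, 118 for Dnajb1 and 485 for Hbb-bt.

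The remaining 7 of this set were Zfp947, Tor4a, Zfand4, Dgkg, Sycp2, Cep19 and, among heat shock genes, Dnajb1, with Blood levels between 41.8 and 120 and Skin levels between 0.0736 and 1.51. At higher levels, and chosen after their values were seen, Cpd, a carboxypeptidase, stood at 222, 117 and 276 in Skin and 1254, 1709 and 1223 in Blood (-2.83 ± 0.54, limma adjusted p = 0.0488). Mgam, maltase-glucoamylase, stood at 15.2, 30.5 and 66.9 against 482, 556 and 396 (-3.86 ± 0.69, limma adjusted p = 0.0388). Both were lower in every Skin library, and their Skin levels were well above the floor.

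**Figure D4:**
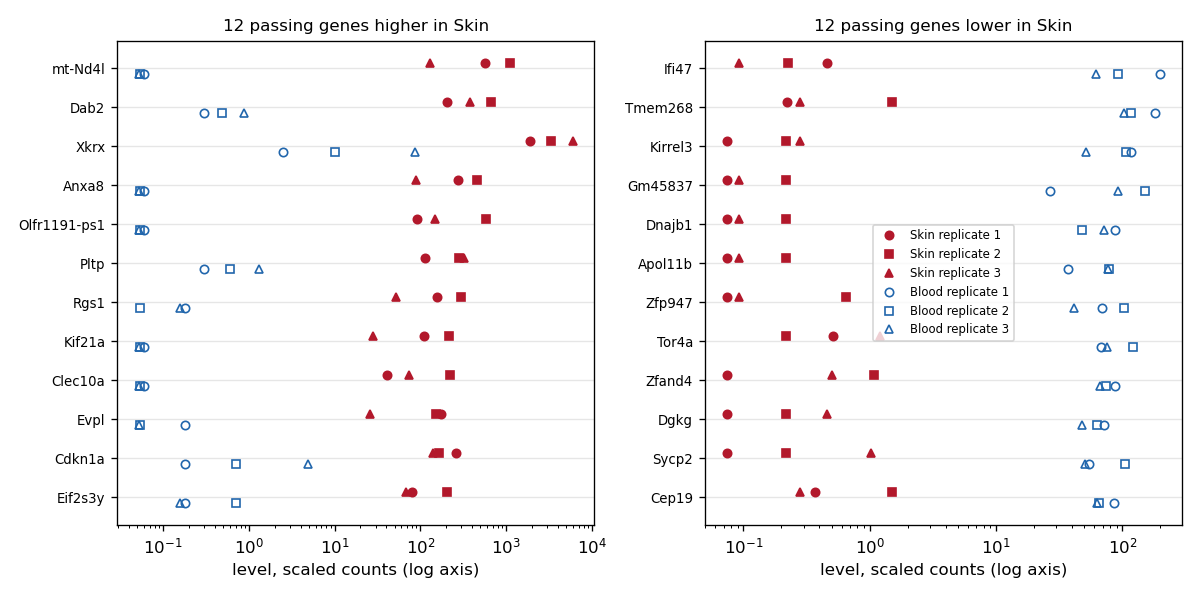
Levels in each library of the 12 higher and 12 lower passing protein-coding genes of largest difference outside the lists of other cells, in scaled counts on log axes. Filled red symbols are Skin and open blue symbols are Blood, and most lower genes sit at or near the floor in Skin. The 24 genes were chosen among those whose groups do not overlap, so the lack of overlap is not a result.

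Lists of neutrophil function had no passing member. Medians were below that of all genes for adhesion and migration (19 tested, median -1.48), pattern recognition receptors (23, -1.45), hypoxia and glycolysis (25, -1.38) and NADPH oxidase and NET formation (14, -1.35). Without Skin replicate 1 these medians were -1.07, -0.951, -0.931 and -0.909, against -0.775 for all genes in that fit. Without Skin replicate 2, hypoxia and glycolysis stood at -0.281, close to -0.255 for all genes, and the other lists stayed further below. The Bcl2 family and survival genes (17, -0.71) were close to all genes at -0.64, and above them with median-of-ratios scaling (-0.28 against -0.32). Mcl1, the survival factor on which neutrophils depend, stood at 808, 2083 and 3022 in Skin and 3397, 3873 and 4230 in Blood. Every Skin library was below every Blood library for Mcl1, and Skin replicate 1 was the lowest.

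Matrix and tissue remodelling enzymes had 0 passing of 17 tested (median 0.41), and Mmp9, the gelatinase of neutrophil granules, stood at 32.0, 758 and 889 in Skin and 1569, 1523 and 2104 in Blood. Cell cycle genes had 0 of 14 (0.62). Mki67, a marker of cycling cells, overlapped at 208, 9.74 and 36.9 against 123, 144 and 129.

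Some genes were at nearly the same level in all 6 libraries in spite of this spread. C3, complement component 3, stood at 410, 421 and 381 in Skin and 415, 443 and 449 in Blood (-0.11 ± 0.48, limma adjusted p = 0.916). The taurine transporter gene Slc6a6 stood at 396, 351 and 362 against 350, 394 and 417. Mtdh, Pign, Klf11 and Med13 were the next by smallest range. At the other end, the anti-apoptotic gene Bcl2a1a stood at 0 counts, 683 and 0.557 in the Skin replicates, and the RNA helicase gene Ddx6 at 0.688, 0.655 and 883. Bcl2a1a has near-identical copies, so its value is uncertain for the single gene. Neither passed, nor did Mdm1, at 0.221, 711 and 17.2 in Skin and 34.0 to 41.2 in Blood. Retnla, a secreted resistin-like protein, stood at 0.368, 749 and 234 in Skin, was under 1 in Blood and was not tested.

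The list medians without each Skin library show which library they rest on. In these fits the median of all genes was -0.775 without Skin replicate 1, -0.255 without replicate 2 and -0.863 without replicate 3. The neutrophil identity median was -1.04 without Skin replicate 1, -2.83 without replicate 2 and -2.52 without replicate 3, so without replicate 1 it lay close to that of all genes. Specific and gelatinase granule genes gave -1.49, -2.88 and -2.78. For cytokines and chemokines the medians were 1.87, 2.21 and 1.27, and for fibroblast markers 1.68, 3.64 and 3.19. These 4 medians kept their sign, while those of cell cycle genes (-0.01 without replicate 1) and angiogenic factors (0.00076 without replicate 1) turned, both close to 0. In lists with few tested genes, T, gamma-delta T and NK cell markers turned from -0.544 to 0.219 without replicate 2. Muscle markers turned from 0.192 to -0.447 without replicate 3.

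**Figure D5:**
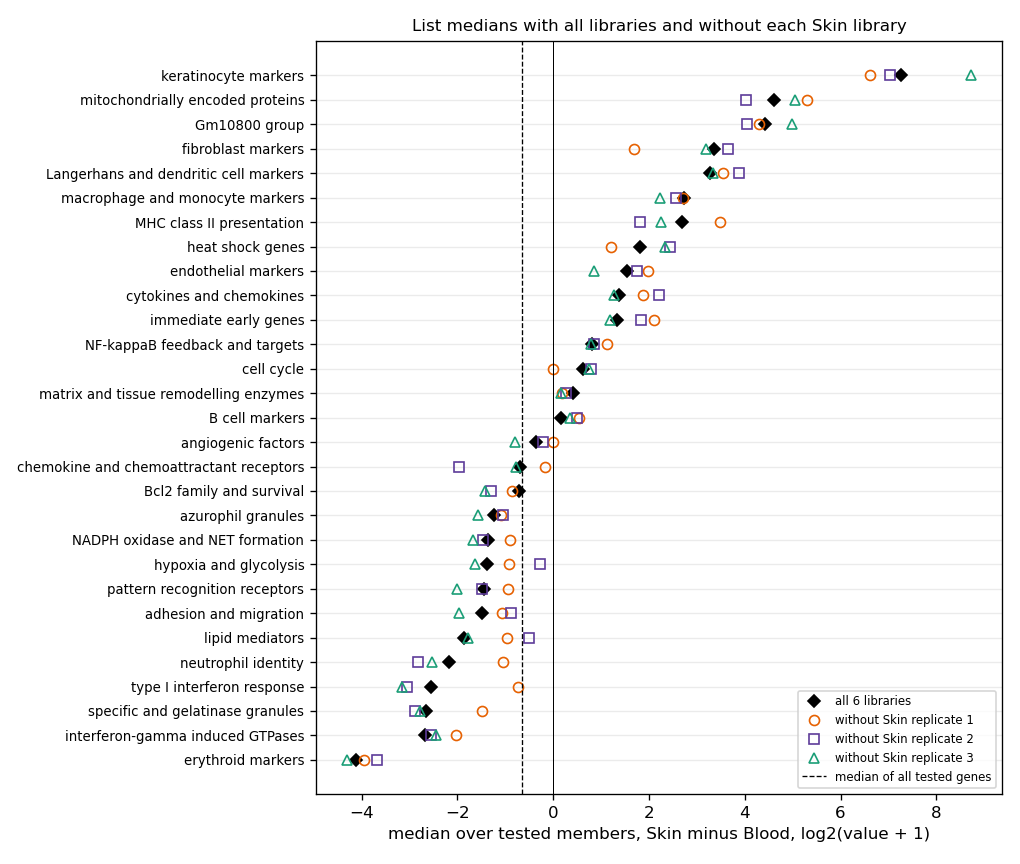
Median Skin minus Blood difference on log2(value + 1) over the tested members of each list with 10 or more tested genes, with all 6 libraries (black) and without each Skin library (open symbols). The dashed line is the median of all tested genes with all 6 libraries, -0.64. Fibroblast markers stay to the right of it in every case, and the position of keratinocyte markers is partly fixed by the filter.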

How the data were processed

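The members and all lists were chosen with earlier results of these data known. The authors deposited 1 table of signal values for 32328 genes in 18 libraries, from 61-nt reads per the labels' protocols. The submitters' processing notes name CASAVA, RSEM 1.3.1, limma and the build mm10, and the annotation is not given in the sources used here. The table is named TPM, and the test was chosen for TPM. The deposited signal values proved to be estimated counts (0.5 added) over an effective library size (1 added), with no gene length, and the same test was kept. GENCODE vM21 named 31899 identifiers and left 429 unnamed.

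Genes reaching 1 in 3 or more of these 6 libraries were fitted on log2(value + 1) with limma 3.58.1 in R 4.3.3 (trended prior, 4 residual and 5.36 prior degrees of freedom) and adjusted by Benjamini-Hochberg over all of them. The fit was tested on simulated data. This scale understates changes of low genes. Bounds on folds use a floor of 3 counts per library and cover counting error only.

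The genes to name were the 12 higher and 12 lower passing protein-coding genes of largest difference (higher group averaging 20 or more, no overlap, in no list of other cells), up to 4 per list by p-value, a fixed set, the 8 highest in Skin, and 6 each of widest Skin range and smallest overall range, and some of these are given only within a count. Others were chosen after their values were seen. A gene of the fixed set is not reported here. Lists were counted, not tested. Overlapping genes, antisense pairs and near-identical copies are uncertain, since strand use is not given in the sources used here. RefSeq promoters (GRCm38.p6) matched 48 of 74 higher genes outside the Gm10800 group and 20 of 23 lower ones. The 18 alternatives changed the pseudocount, filter, prior, scaling, weights, block or libraries. Python 3.11.15, pandas 2.3.3 and matplotlib 3.10.9 made tables and plots.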

Additional observations from a re-analysis of the deposited data

How the results depend on the processing

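Against 109 genes (86 higher and 23 lower in Skin), a pseudocount of 0.25 gave 543 (218 and 325), no filter on low values 19 (18 and 1), a minimum of 5 gave 674 (267 and 407), all 18 libraries 2857 (880 and 1977), a weight per library 691 (336 and 355), a constant prior 345 (166 and 179), and quantile normalization 914 (564 and 350). The lower genes alone moved to 44 with a robust prior and to 9 after rescaling without the Gm10800 group. A replicate block gave 647 (301 and 346). Same-numbered libraries had correlations of -0.0332, -0.0175 and -0.00533 between their deviations, and other pairings were as near 0. Such values cannot tell whether same-numbered libraries share a mouse or pool. Column names share a letter for replicates 1 (A) and 2 (B) but not for replicate 3 (C and D). Skin replicate 1 and Blood replicate 2 also carry the mark rep. Leaving out 1 library gave from 0 (without Skin replicate 1) to 1045 genes (without Skin replicate 2), with 0 to 511 higher and 0 to 648 lower, the last without Skin replicate 3. Without any 1 of the Blood replicates 0 lower genes passed. The causes were not tested. A pseudocount of 5 (134), a robust prior (147), median-of-ratios scaling (104) and rescaling (91) stayed within 1.5 times of 109. Over the genes named or listed, no called value reversed, while 398 values at an alternative lost the threshold and 384 gained it. For genes without overlap most alternatives could not reverse the direction. The main design gives a gene 1 spread over libraries whose residual SDs were 1.39 to 1.84 in Skin and 0.577 to 0.625 in Blood, and limma's library weights were 0.138 to 0.705 in Skin and 2.66 to 3.17 in Blood. Skin replicate 2, with 9169 genes above its floor, limits what low genes can show, since 3 counts there are worth 1.515.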

Other observations

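Genes of the Y chromosome were measured in all 6 libraries, and those shown here other than Eif2s3y were chosen after their values were seen. Ddx3y, an RNA helicase, stood at 117, 512 and 161 in Skin and 11.4, 1.69 and 1.61 in Blood (5.59 ± 1.0, limma adjusted p = 0.0388). Eif2s3y, a translation initiation factor subunit, stood at 79.8, 202 and 68.4 in Skin and 0.179, 0.708 and 0.156 in Blood (6.30 ± 1.04, limma adjusted p = 0.0326). In the other 12 libraries Ddx3y ranged from 59.4 to 176 and Eif2s3y from 25.6 to 176, so the Blood libraries were the low ones of the series for both genes. The other Y-linked genes shown did not pass: Uty stood at 159, 728 and 363 in Skin and 37.1, 33.2 and 16.4 in Blood, and the histone demethylase gene Kdm5d overlapped at 64.8, 1.87 and 85.1 against 28.9, 38.4 and 23.3. The labels give no sex, and its part in these differences was not tested.

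Several genes known mainly from other organs passed and were higher in Skin, and were also picked after their values were seen. Pou1f1, a transcription factor of the pituitary, stood at 353, 4471 and 694 in Skin and 7.08, 17.4 and 26.1 in Blood (6.02 ± 0.97, limma adjusted p = 0.0317). Nkx2-1, a transcription factor of thyroid and lung, stood at 167, 503 and 206 against 4.09, 4.93 and 4.93 (5.53 ± 0.80, limma adjusted p = 0.021). Gpr37, a receptor known in brain, stood at 669, 5153 and 1201 against 77.2, 58.0 and 37.0, and Shank1, a scaffold protein of synapses, at 159, 1571 and 214 against 10.1, 7.89 and 13.8. In all 4 Skin replicate 2 was the highest library, and the other 12 libraries reached 29.8, 45.1, 151 and 103. The Gm10800 group was also highest in Skin by summed level, at 834383, 1071390 and 293023 against 10577 to 46563 in Blood, and its part in these values was not tested.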
